A study of Mus musculus with 13 samples.

Results

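Imprinted genes are transcribed mainly from the allele inherited from 1 parent, and the genes examined here were taken from lists of imprinted mouse genes and their neighbours. A list of 50 gene names spread over 21 domains was matched to the rows of the count table by exact name. A row was found for 46 of the 50 names, among 54281 features in all, of which 27111 carried a gene name. Rian, Copg2os2, Cd81os and Nespas had no row under those names. Nespas, the antisense RNA of the Gnas domain, was listed under its RefSeq symbol Gnasas1 and its values are given separately. Among the 46 members, 32 passed the filter on low counts and were tested with 14421 genes in all, and 14 did not.

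The libraries came from Sertoli cells sorted from the testes of adult C57Bl/6J males aged 3 to 5 months, with 1 library per mouse. Control males (n = 6) were left undisturbed as pups. MSUS males (n = 7) came from litters that went without their dam for part of every day over postnatal days 1 to 14. Neither the hour of separation nor the stress given to the dams meanwhile was predictable. The cells were diploid by Hoechst staining, large by forward scatter and bright for MitoTracker, and no surface marker or transgene was used for the sort. The counts summed to 13087108 to 18649819 per control library (median 15435736) and to 12701664 to 15693836 per MSUS library (median 14849668). Because each library is a separate mouse, the p-values given here measure the spread between mice. In the study, breeding pairs were assigned to the groups, so that whole litters shared a treatment. Litter and cage were not analysed, and any mice from the same litter were treated as independent.

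Imprinting is set in the germ line, where the differentially methylated regions of each domain acquire their methylation, and it is kept in somatic cells by proteins that protect this methylation. Many imprinted genes act on fetal and placental growth, with paternally expressed genes such as Igf2 promoting growth and maternally expressed genes such as Cdkn1c and Grb10 restraining it. Sertoli cells are the somatic cells of the seminiferous tubule that nurse the germ cells. The counts do not separate the parental alleles, since the mice are inbred, so that every value below is the sum of both alleles. Whether a gene is imprinted in Sertoli cells was therefore not measured. Of the 32 tested members, 6 are known to be imprinted only in some tissues (Ppp1r9a, Trappc9, Blcap, Commd1, Herc3 and Inpp5f), Ube3a is so in neurons and H13 in part, and for Zfp64 the expressed allele was not assigned here.

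Sertoli cell markers were abundant in every sample. Clu, Ctsl, Rhox5 and 5 further Sertoli genes summed to between 13009 and 16036 CPM (counts scaled to the total of the library), and their mean level was 9.54 ± 0.08 log2 CPM in control and 9.50 ± 0.07 in MSUS samples (SD). The 5 macrophage markers summed to at most 1.56 CPM, with Lyz2 at 0 in every sample, and the 5 spermatogonial markers to at most 5.80 CPM. RNA of elongated spermatids was present in all samples, with a sum of 728.28 to 1763 CPM over Prm1, Prm2, Tnp1 and Tnp2, of which Prm2 was the most abundant. Spermatocyte markers summed to 115.9 to 270.83 CPM, round spermatid markers to 47.7 to 115.05 CPM, endothelial markers to 54.5 to 75.2 CPM, Leydig markers to 31.9 to 85.8 CPM and peritubular myoid markers to 24.7 to 105.51 CPM. As in any bulk sample, fewer cells of a type and less RNA per cell cannot be told apart. The sort separated diploid cells from haploid spermatids and from tetraploid cells. The paper proposes that the spermatid RNA likely comes from remnants of spermatids that Sertoli cells engulfed. How far RNA of these other cell types contributed to the levels of the imprinted genes was not tested.

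The promoters of 4 members are shown, that of Peg3 because it is shared in large part with a gene of a very different level, that of Ppp1r9a because its gene is among the most abundant, and those of Mcts2 and Nap1l5 because both hold the same motif while their genes differ in level. Peg3 encodes a zinc finger protein and Usp29 a deubiquitinase, and both are transcribed from the paternal allele, in opposite directions. Their annotated start sites lie 164 bases apart, so that the 300-base promoter windows of the RefSeq table (250 bases before and 50 after the start, GRCm38.p6) share 263 bases, which are the last 263 bases of the Peg3 sequence as printed. Ppp1r9a, which encodes the actin-binding protein neurabin, had the member window shown with the most CpG dinucleotides, 48 against 13 for Peg3. Another Ppp1r9a window, not shown, held only 10, and the one richer in CpG was chosen. The capitals mark CpG dinucleotides in both sequences, which lie at chr7:6730370-6730669 on the minus strand for Peg3 and at chr6:4903061-4903360 on the plus strand for Ppp1r9a.
Peg3: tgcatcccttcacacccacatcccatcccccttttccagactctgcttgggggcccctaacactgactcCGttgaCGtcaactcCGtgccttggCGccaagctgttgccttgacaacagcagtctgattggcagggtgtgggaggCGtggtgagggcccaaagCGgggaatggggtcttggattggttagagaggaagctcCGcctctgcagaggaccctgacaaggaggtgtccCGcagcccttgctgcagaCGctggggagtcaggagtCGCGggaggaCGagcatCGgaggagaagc
Ppp1r9a: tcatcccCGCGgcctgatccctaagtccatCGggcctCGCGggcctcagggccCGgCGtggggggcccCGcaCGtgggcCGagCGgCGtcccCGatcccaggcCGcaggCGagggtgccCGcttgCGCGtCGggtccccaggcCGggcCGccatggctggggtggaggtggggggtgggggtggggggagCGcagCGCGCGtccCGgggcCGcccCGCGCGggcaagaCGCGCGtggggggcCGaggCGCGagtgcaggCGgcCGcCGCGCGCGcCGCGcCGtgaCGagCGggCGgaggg

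Mcts2 and Nap1l5 are retrogenes that sit inside the introns of other genes (H13 and Herc3) and are expressed from the paternal allele. Their windows lie at chr2:152686898-152687197 on the plus strand for Mcts2 and at chr6:58907077-58907376 on the minus strand for Nap1l5. The capitals mark the hexamer TGCCGC, which ZFP57 recognises when its CpG is methylated. It was searched on both strands and no other motif was searched, so that no overlap arose.
Mcts2: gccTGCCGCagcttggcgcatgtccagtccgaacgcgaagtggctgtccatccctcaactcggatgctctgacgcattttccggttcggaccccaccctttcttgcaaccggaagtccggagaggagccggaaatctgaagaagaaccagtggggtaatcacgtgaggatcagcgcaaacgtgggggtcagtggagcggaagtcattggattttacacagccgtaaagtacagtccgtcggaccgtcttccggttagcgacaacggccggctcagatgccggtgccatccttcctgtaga
Nap1l5: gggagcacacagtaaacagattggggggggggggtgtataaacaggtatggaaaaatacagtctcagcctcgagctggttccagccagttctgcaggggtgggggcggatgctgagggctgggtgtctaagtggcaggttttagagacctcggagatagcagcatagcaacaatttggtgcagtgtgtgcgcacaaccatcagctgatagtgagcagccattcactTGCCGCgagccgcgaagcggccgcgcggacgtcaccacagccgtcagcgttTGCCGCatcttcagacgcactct

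A promoter was given by RefSeq for 38 of the 50 names, with 54 windows between them, Rian included although it had no row of counts. The hexamer occurred in 13 of these windows (24.07%), against 11.61% of all 32851 windows of the same length. By gene, 12 of the 38 names (31.58%) held it, against 13.05% of 27025 genes. The 54 member windows, with or without the hexamer, were also richer in CpG, with a median of 12 CpG dinucleotides per window against 7. Their median observed-to-expected CpG ratio was 0.587 against 0.384. The 12 genes with the hexamer were Commd1, Grb10, Igf2, Mcts2, Meg3, Mest, Nap1l5, Nnat, Plagl1, Snrpn, Zdbf2 and Zim1, and 10 of them were among the genes tested. These matches describe the letters of the windows only.

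Adult Sertoli cells expressed a limited set of imprinted genes strongly. Of the 32 members tested, 22 had a mean level of at least 3 log2 CPM, and 14 lay above the median gene tested, which stood at 4.31 log2 CPM. The median level of the tested members was 3.56 log2 CPM. All members together took 0.1805% to 0.2491% of the counts of named genes in a library, with the highest share in MSUS 26. A pair of neighbours on chromosome 6, Ppp1r9a and Peg10, supplied 60.5% of the summed CPM of the members without scaling to length, and Ube3a brought the sum to 69.2%.

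**Figure D1:**
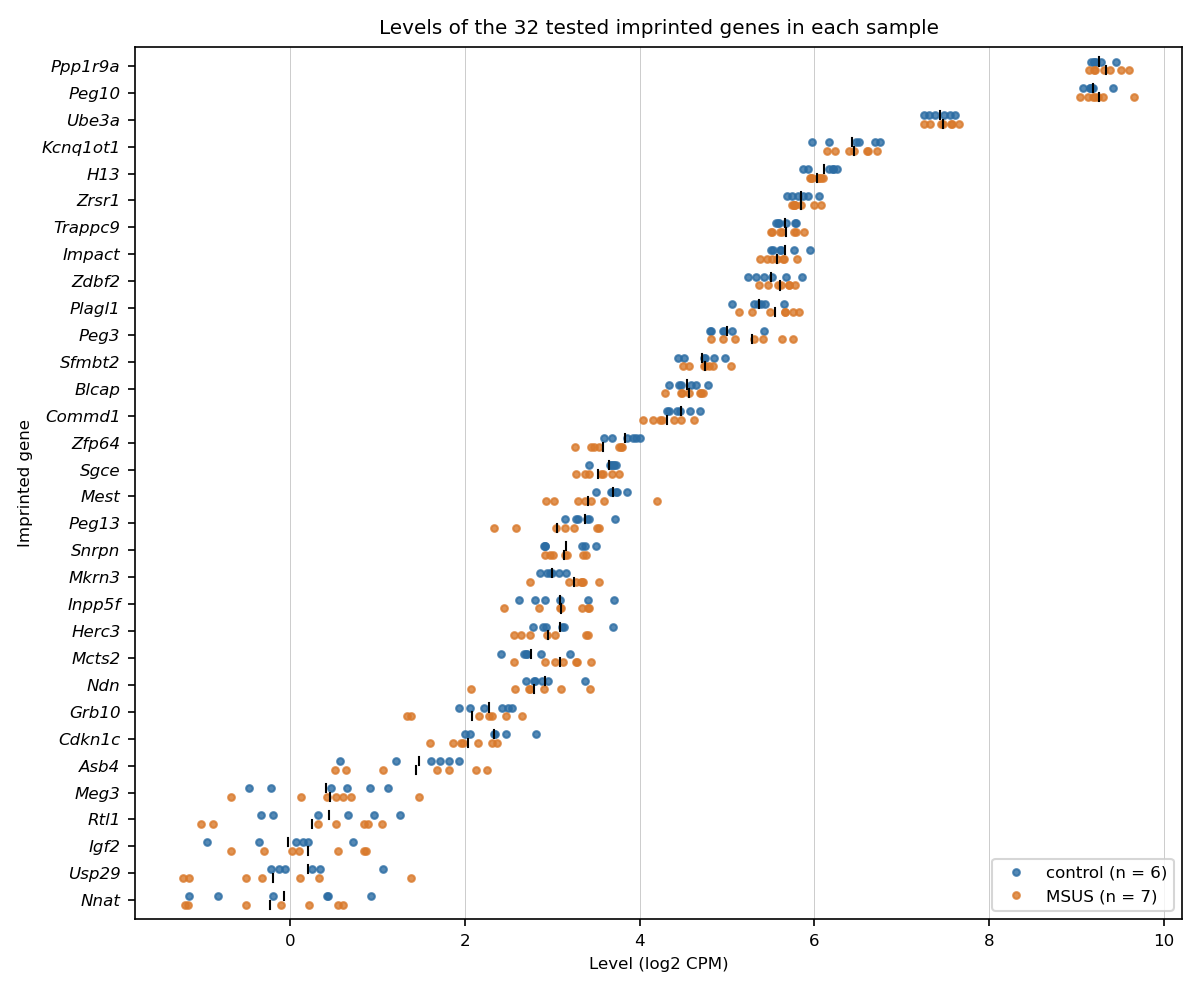
Level of each of the 32 tested imprinted genes in each sample, in log2 CPM, ordered by mean level; points are samples (blue, control, n = 6; orange, MSUS, n = 7) and black ticks are group means. Ppp1r9a and Peg10 stand near 9.3 and 9.2, apart from Ube3a near 7.5, and the groups overlap for every gene.

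Per kilobase of the longest annotated transcript, the order of the genes changed. Peg10, a retrotransposon-derived gene that the placenta requires, was first with 90.5 ± 11.2 CPM per kilobase (SD over 13 samples), followed by Ppp1r9a with 66.4 ± 6.97. Peg10 spans chr6:4747306-4760517 and Ppp1r9a chr6:4902917-5165661 (GRCm38). Their SDs did not overlap, but the order depends on the transcript length used. With the median annotated length, Ube3a came first with 229 CPM per kilobase, before Ppp1r9a with 175, Plagl1 with 98.5 and Peg10 with 90.5, and 8 of the 10 highest genes were shared between both lengths. The values that follow use the longest transcript. The ubiquitin ligase Ube3a, imprinted in neurons, followed with 17.9 ± 1.66 CPM per kilobase. Next stood Impact, a regulator of the amino acid sensor Gcn2, with 13.1 ± 1.45, the signal peptide peptidase H13 with 12.9 ± 1.09 and the splicing factor retrogene Zrsr1 with 12.9 ± 1.14. The SD ranges of these 3 overlapped with each other and with that of Trappc9, a subunit of a trafficking complex (11.2 ± 0.953 CPM per kilobase). They also overlapped with that of Blcap, a small membrane protein (11.1 ± 1.17). All genes were read in the same libraries, and differences between genes within a library were not tested. The zinc finger transcription factor Plagl1 (8.47 ± 1.38) and Mcts2 (8.39 ± 1.87) closed the list of the 10 highest, and their SD ranges likewise overlapped. Kcnq1ot1, the long antisense RNA that silences the Kcnq1 domain, ranked just below Ube3a by level but had only 0.944 ± 0.154 CPM per kilobase, because its annotated transcript is 93.1 kilobases long.

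**Figure D2:**
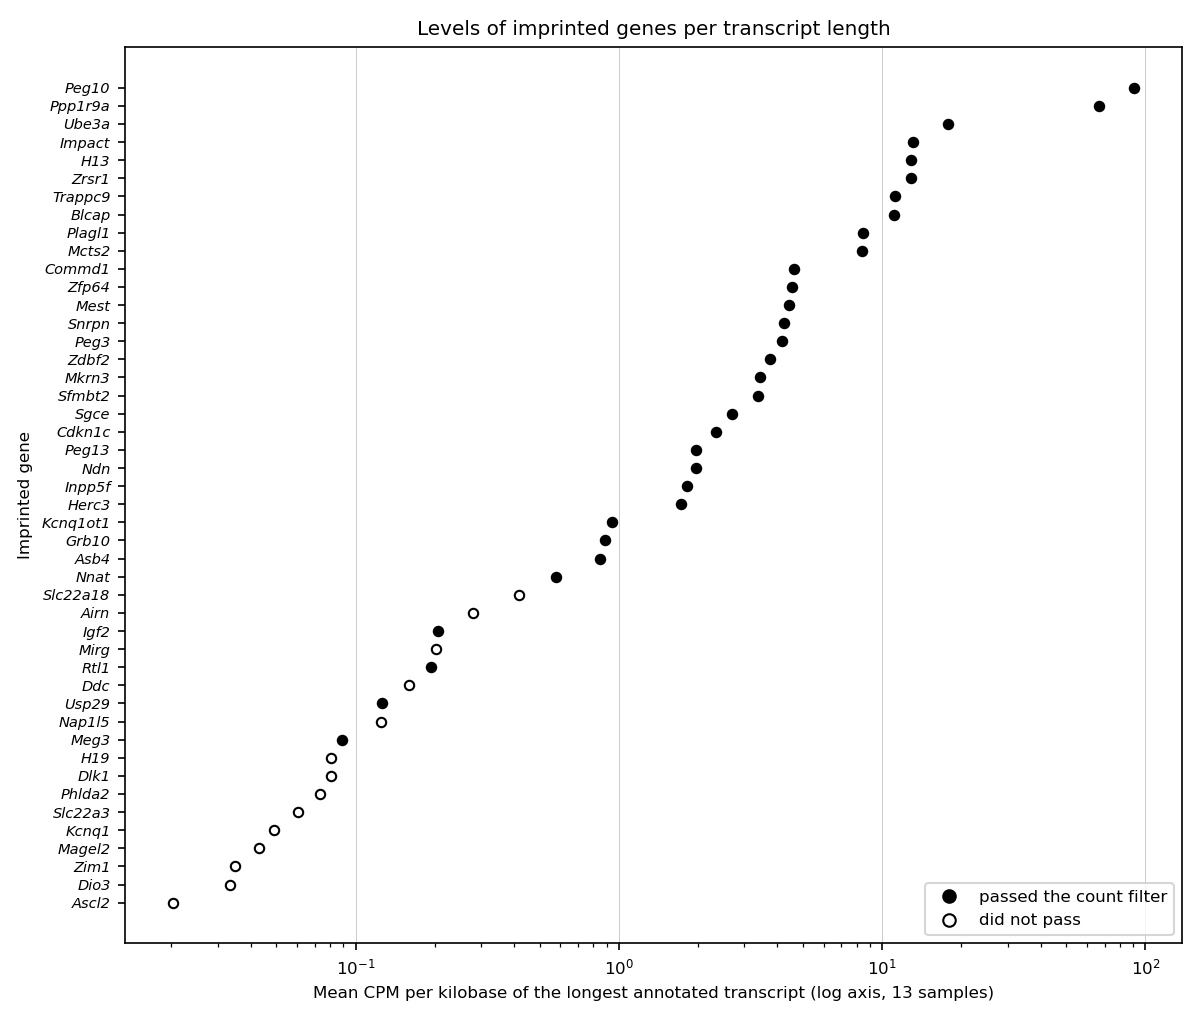
Mean CPM per kilobase of the longest annotated transcript over 13 samples, on a log axis, for the 46 imprinted genes with a row; filled points passed the filter on low counts and open points did not. Peg10 and Ppp1r9a stand at 90.5 and 66.4, Ube3a at 17.9, and all genes that did not pass, apart from Slc22a18 at 0.418, lie below 0.3.

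The Peg10 domain of proximal chromosome 6 had the highest counts. Peg10 ranged from 9.07 to 9.42 log2 CPM in control samples (median 9.17) and from 9.04 to 9.66 in MSUS samples (median 9.22). Ppp1r9a ranged from 9.16 to 9.46 in controls (median 9.21), while MSUS samples lay between 9.15 and 9.61 (median 9.32). For both genes control 10 was the highest control sample and MSUS 26 the highest MSUS sample. Sgce, the epsilon-sarcoglycan gene that is divergent from Peg10, was far lower at 3.65 ± 0.11 log2 CPM in control and 3.52 ± 0.17 in MSUS samples, or 2.68 CPM per kilobase. Asb4, a maternally expressed gene of the same domain, was lower still, with 13 to 51 counts per sample or 0.847 CPM per kilobase.

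In the Snrpn domain of central chromosome 7, the region of the Prader-Willi and Angelman syndromes, Ube3a was the most abundant gene, at 7.44 ± 0.14 log2 CPM in control and 7.47 ± 0.14 in MSUS samples. Per kilobase it had 17.9 CPM, against 4.23 for Snrpn, 3.42 for Mkrn3 and 1.96 for Ndn, which are expressed from the paternal allele. Snrpn, which encodes a spliceosomal protein, stood at 3.16 ± 0.27 and 3.14 ± 0.18 log2 CPM, Mkrn3, a makorin ubiquitin ligase, at 3.00 ± 0.11 and 3.25 ± 0.24, and Ndn, encoding necdin, at 2.92 ± 0.24 and 2.80 ± 0.42 in control and MSUS samples. Magel2, which lies between Ndn and Mkrn3, had at most 9 counts and was at 0 in 6 samples. The value of Snrpn is uncertain, since 28.6% of its 31-base stretches also occur in other annotated genes, 23.7% in Gm38393 alone. For Ube3a, 26.4% of the stretches occur in other annotated genes on the opposite strand, as do 27.2% for Cdkn1c and 21.96% for Mest. The strand setting of the counting is not known here, so that reads of these genes and of their antisense partners cannot be told apart.

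In the Peg3 domain of proximal chromosome 7, the shared promoter stretch shown above separated a gene that was well expressed from one that was hardly detected. Peg3 had 275 to 624 counts per sample and Usp29 had 3 to 28. Per kilobase the means were 4.17 ± 0.986 for Peg3 and 0.126 ± 0.0815 CPM for Usp29. Zim1, the maternally expressed zinc finger gene of the domain, had 1 to 6 counts.

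Several retrogenes were read beside the host genes they lie in. Zrsr1 lies within Commd1 on the opposite strand, Mcts2 within H13 on the same strand, and Nap1l5 within Herc3 on the opposite strand. Zrsr1 was at 5.85 ± 0.13 log2 CPM in both groups, against 4.47 ± 0.14 in control and 4.31 ± 0.20 in MSUS samples for Commd1, a protein of endosomal sorting. Per kilobase of the longest transcript Zrsr1 had 12.9 and Commd1 4.63 CPM, but with the median transcript length the order turned, with 17.6 for Zrsr1 and 32.5 for Commd1. Mcts2 stood at 2.76 ± 0.26 log2 CPM in control and 3.09 ± 0.29 in MSUS samples, and H13 at 6.11 ± 0.16 and 6.03 ± 0.06. Nap1l5, whose window holds 2 copies of the hexamer, had at most 7 counts and was at 0 in 4 samples, whereas its host Herc3, a ubiquitin ligase, stood at 3.09 ± 0.33 and 2.96 ± 0.34 log2 CPM. Whether reads of a gene nested on the same strand are separated from those of its host depends on the transcript models used for counting.

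In the Igf2-H19 domain of distal chromosome 7 both genes were low. Igf2 had 5 to 20 counts per sample, and H19, its maternally expressed non-coding neighbour, had at most 6 and was at 0 in 4 samples. The Igf2 count is uncertain, because 61.9% of its 31-base stretches also occur in Gm49394, an annotated gene that overlaps it. In the Dlk1-Dio3 domain of distal chromosome 12, the long non-coding RNA Meg3 had 5 to 30 counts, Rtl1, a retrotransposon-derived gene, had 3 to 24, the microRNA host Mirg had 2 to 22 and Dio3, the thyroid hormone deiodinase, had at most 4. Dlk1, a transmembrane protein related to the Notch ligands, had 26 counts in MSUS 1 and 13 in control 22 and at most 5 in every other sample. In the Kcnq1 domain of distal chromosome 7, the cell cycle inhibitor gene Cdkn1c had 34 to 79 counts, or 2.33 CPM per kilobase, but the channel gene Kcnq1 itself had at most 5, Phlda2 at most 3 and Ascl2 at most 2. The insulin receptor adaptor Grb10 had 28 to 76 counts, and its neighbour Ddc at most 11.

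Members that did not pass the filter were all low in both groups. Besides those already named, Slc22a18 had at most 22 counts, Slc22a3 at most 11 and Airn at most 9. In all, 9 of the 14 had a highest count of at most 10. Of the 32 that passed, 27 reached the minimum of the filter in all 13 samples, and the other 5, Igf2, Meg3, Rtl1, Usp29 and Nnat, reached it in 3 or 4 control and 3 to 6 MSUS samples. No member was at 0 in every sample, and 10 were at 0 in at least 1 sample. At these totals a count of 0 does not show that a gene is silent.

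**Figure D3:**
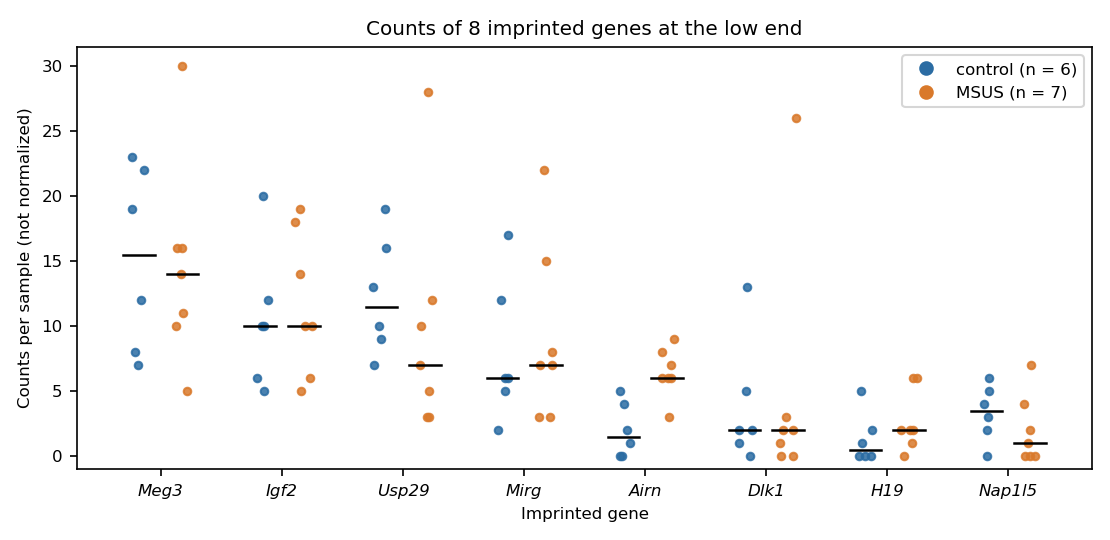
Counts per sample, not normalized, of 8 imprinted genes at the low end; points are samples (blue, control, n = 6; orange, MSUS, n = 7) and bars are group medians. All counts lie at or below 30, and the counts of Airn run from 0 to 5 in control and from 3 to 9 in MSUS samples.

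The remaining members with a level of at least 3 log2 CPM, and those beside them in their domains, were as follows in control and MSUS samples, in that order. Trappc9 stood at 5.66 ± 0.10 log2 CPM in control and 5.67 ± 0.14 in MSUS samples, and Peg13, the non-coding RNA inside it on the same strand, at 3.38 ± 0.19 and 3.06 ± 0.45. Impact was at 5.66 ± 0.17 and 5.58 ± 0.14, and Zdbf2, a zinc finger gene with an imprinted long transcript, at 5.51 ± 0.23 and 5.61 ± 0.15. Sfmbt2, a Polycomb group gene, was at 4.71 ± 0.20 and 4.75 ± 0.18, Blcap at 4.55 ± 0.16 and 4.56 ± 0.16, and Inpp5f, an inositol phosphatase gene, at 3.09 ± 0.41 and 3.09 ± 0.35 log2 CPM. Nnat, which lies inside Blcap on the opposite strand and is known from brain, had 3 to 17 counts. Kcnq1ot1 was at 6.43 ± 0.30 and 6.45 ± 0.21. Gnasas1, the row that corresponds to Nespas, stood at 2.17 ± 0.74 in control and 2.41 ± 0.52 in MSUS samples.

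The comparison of MSUS with control males asked whether early life stress left a lasting difference in these genes. None of the 32 members passed the test after adjustment, with limma voom over 14421 genes and Benjamini-Hochberg adjustment, and neither did any gene of the table, so that the background share was 0%. At an unadjusted p under 0.05 there were 0 members, against 5.42% of all genes tested (781 genes), of which 3.02% were higher and 2.4% lower in MSUS samples. No member separated the groups without overlap, against 0.139% of all genes (20 genes). DESeq2 gave 3 members with an unadjusted p under 0.05, against 5.79% of all genes, edgeR gave 1, against 5.5%, and neither gave any after adjustment. The median log2 fold change of the members was 0.0029, with 16 above and 16 below 0, beside -0.0018 over all genes. The lowest adjusted p among the members was 0.878.

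**Figure D4:**
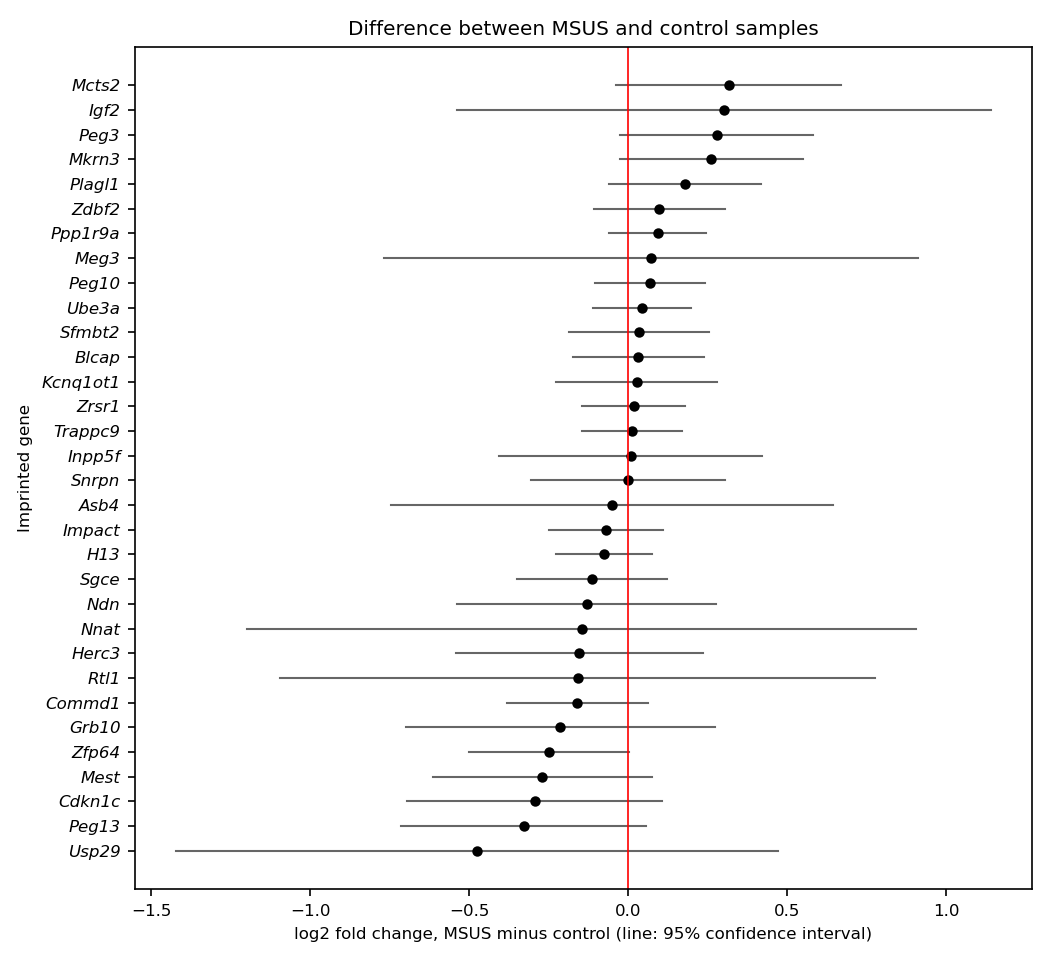
Log2 fold change of MSUS against control for the 32 tested imprinted genes, ordered by size; points are limma voom estimates, lines their 95% confidence intervals, and the red line marks 0. Estimates run from -0.48 for Usp29 to 0.32 for Mcts2, and every interval includes 0.

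For the abundant genes the intervals were narrow. Ppp1r9a had a log2 fold change of 0.09 (SE 0.07, 95% interval -0.06 to 0.25, limma unadjusted p = 0.223) and Peg10 one of 0.07 (SE 0.08, interval -0.11 to 0.24, unadjusted p = 0.425). Without MSUS 26 the difference was 0.05 for Ppp1r9a and 0.0034 for Peg10. By the same limma test, Ube3a differed by 0.04 (SE 0.07, unadjusted p = 0.564), Impact by -0.07 (SE 0.09, unadjusted p = 0.421) and H13 by -0.08 (SE 0.07, unadjusted p = 0.297), the last with all 7 MSUS mice under the mean of the controls. With single libraries left out, Ube3a ran from 0.0062 to 0.08, Impact from -0.11 to -0.02 and H13 from -0.12 to -0.05, the values nearest 0 being those without control 22, control 14 and control 24. Zrsr1 (0.02, SE 0.08), Trappc9 (0.01, SE 0.08) and Blcap (0.03, SE 0.10) had estimates that changed sign under other settings, as did those of Ppp1r9a, Peg10, Ube3a and H13 with the level of Malat1 as a covariate. Over the 32 members the half-width of the interval had a median of 0.30 and reached 1.05 for the lowest genes, and for 16 of them the whole interval lay within 0.5 of 0. The median residual SD was 0.242 for the members and 0.231 for all genes.

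The 5 members with the smallest p among those higher in MSUS samples were Peg3, Mkrn3, Mcts2, Plagl1 and Ppp1r9a. Peg3 ranged from 4.81 to 5.42 log2 CPM in controls (median 4.96), while MSUS samples lay between 4.82 and 5.76 (median 5.31). The difference was 0.28 (SE 0.14, 95% interval -0.03 to 0.58, limma unadjusted p = 0.0709), and 5 of the 7 MSUS mice exceeded the mean of the controls. MSUS 1 and MSUS 26 were the highest, and MSUS 11 was among the lowest samples of either group. Mkrn3 ranged from 2.86 to 3.16 in controls (median 2.99), while MSUS samples lay between 2.75 and 3.53 (median 3.33), with a difference of 0.26 (SE 0.14, limma unadjusted p = 0.0728). All MSUS samples but MSUS 26, which was the lowest of the 13, lay above every control. Mcts2 ranged from 2.41 to 3.21 in controls (median 2.70), while MSUS samples lay between 2.56 and 3.44 (median 3.12), with a difference of 0.32 (SE 0.17, limma unadjusted p = 0.0771) and 6 of the 7 MSUS values exceeding the mean of the controls. Plagl1 differed by 0.18 (SE 0.11, limma unadjusted p = 0.137), from 5.37 ± 0.19 to 5.55 ± 0.25. Without MSUS 13 its difference was 0.25 (limma unadjusted p = 0.0256, adjusted p = 0.662). With the level of Malat1 as a covariate it was -0.0351 (limma unadjusted p = 0.754).

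On the lower side stood Zfp64, Peg13, Mest, Cdkn1c and Commd1. Zfp64, a zinc finger gene, had the smallest p of the 32 tested members. Its levels ran from 3.597 to 4.002 log2 CPM in controls (median 3.89), while MSUS samples lay between 3.27 and 3.80 (median 3.53). The difference was -0.25 (SE 0.12, 95% interval -0.50 to 0.0014, limma unadjusted p = 0.0511), and all 7 MSUS mice were under the mean of the controls, yet the groups overlapped. Peg13 ranged from 3.15 to 3.71 in controls (median 3.35), while MSUS samples lay between 2.33 and 3.53 (median 3.14), with a difference of -0.33 (SE 0.18, limma unadjusted p = 0.0889). Without MSUS 1 it was -0.20 (limma unadjusted p = 0.231), and without MSUS 11 or MSUS 13 it was -0.41 (limma unadjusted p = 0.0396 and unadjusted p = 0.0403). MSUS 1 and MSUS 6 were its lowest samples, and MSUS 11 and MSUS 13 lay above the control median. Mest, an early marker of mesoderm, ranged from 3.51 to 3.86 in controls (median 3.71), while MSUS samples lay between 2.93 and 4.20 (median 3.38), with a difference of -0.27 (SE 0.16, limma unadjusted p = 0.115). MSUS 26 was the highest of all 13 samples for Mest while the other MSUS samples lay below the control median. Without MSUS 26 the difference of Mest was -0.41 (limma unadjusted p = 0.00667, adjusted p = 0.952). Without MSUS 11 it was -0.19 (limma unadjusted p = 0.248). With the elongated spermatid level as a covariate it was -0.16 (limma unadjusted p = 0.291). Cdkn1c differed by -0.30 (SE 0.19, limma unadjusted p = 0.138), or by -0.20 without control 9. Commd1 differed by -0.16 (SE 0.11, limma unadjusted p = 0.144), or by -0.11 without MSUS 26. With the level of Malat1 as a covariate it differed by -0.10 (limma unadjusted p = 0.47).

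Members were also divided by the allele they are known to be expressed from. Among the 19 tested members known for expression from the paternal allele, 10 had a log2 fold change above 0 and 9 below, with a median of 0.02. The 4 tested members expressed from the maternal allele, Asb4, Cdkn1c, Grb10 and Meg3, had a median of -0.13, with 1 above and 3 below 0. No member of either kind passed the test.

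Malat1, a nuclear long non-coding RNA that is abundant in most cells, was not a member, but its level moved with the groups. It ran from 9.16 to 10.7 log2 CPM in controls (median 9.99), while MSUS samples lay between 10.16 and 11.27 (median 10.4), a difference of 0.70 (SE 0.22, limma unadjusted p = 0.00505, adjusted p = 0.878). With Malat1 as a covariate, 8 of the named members changed the sign of their difference, all of them with an unadjusted p above 0.05 in both fits. How many of all genes changed sign was not counted, so these changes are not particular to the members. Against 5.42% without the covariate, 2.74% of all genes had a limma unadjusted p under 0.05 in the Malat1 fit. In the same fit the difference of Peg3 went from 0.28 to 0.04 (limma unadjusted p = 0.781) and that of Cdkn1c from -0.30 to -0.02 (limma unadjusted p = 0.944), whereas Mcts2, Mkrn3 and Zfp64 kept differences of 0.43, 0.34 and -0.29. The difference of Impact went from -0.07 to -0.15 (limma unadjusted p = 0.149). The elongated spermatid markers had a mean level of 7.90 ± 0.23 log2 CPM in control and 8.09 ± 0.46 in MSUS samples, and with them as a covariate Peg3 differed by 0.32 (limma unadjusted p = 0.0456, adjusted p = 0.606). It was the 1 member with an unadjusted p under 0.05 in that fit, against 8.13% of all genes. Peritubular myoid markers had a mean level of 1.88 ± 0.87 log2 CPM in control and 2.43 ± 0.99 in MSUS samples, and endothelial markers one of 2.67 ± 0.26 and 2.88 ± 0.19. The 5 endothelial markers did not move alike, with differences of 0.75 for Tek (limma unadjusted p = 0.0274, on 8 to 43 counts), 0.26 for Pecam1, 0.22 for Vwf, 0.18 for Kdr and -0.15 for Cdh5, and none passed the adjusted test. The part of these 2 marker groups in the differences given here was not tested.

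Joint variation of members of the same domain across mice was also examined. For every value that spans both groups, the mean of its group was first subtracted from each log2 CPM level. Among 19 pairs of tested members within a domain, Pearson's r across the 13 samples then ran from -0.419 to 0.636, and 12 were above 0. None passed a two-sided permutation test (100000 resamples) after adjustment over the pairs, by Pearson's r or by Spearman's rho. The 3 pairs with an unadjusted p under 0.05 were Ndn with Mkrn3 (r = 0.636, permutation p = 0.0273, adjusted 0.249, rho = 0.412, permutation p = 0.161), Peg10 with Asb4 (r = 0.566, permutation p = 0.0383, adjusted 0.249, rho = 0.626, permutation p = 0.0255) and Peg10 with Ppp1r9a (r = 0.572, permutation p = 0.0392, adjusted 0.249, rho = 0.115, permutation p = 0.711). Within the groups these pairs gave r = 0.354, 0.196 and 0.751 in control samples and 0.697, 0.700 and 0.517 in MSUS samples, in the same order. Without the 2 samples farthest from the median of the first gene, r was 0.258, 0.523 and -0.391, so that the relation of Peg10 with Ppp1r9a rests on those samples. Peg3 and Usp29, which share a promoter stretch, had r = 0.387 (permutation p = 0.194) and rho = 0.357 (permutation p = 0.232) over the 13 samples, but r was -0.0015 in control and 0.501 in MSUS samples and 0.0014 without the 2 farthest samples. In 8 of the 19 pairs the sign of r differed between the control and the MSUS samples, a difference that was not tested.

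Other genes reported as imprinted formed a list of 42 names. Rows were found for 41, of which 27 were tested. Igf2os, an antisense RNA that overlaps Igf2 on the opposite strand, reached the minimum of the filter in 2 control and 7 MSUS samples. It thus entered the test through the group where it is high, so its p-value is not counted here. At an unadjusted p under 0.05, none of the others was higher and 1 was lower in MSUS samples. The shares of all genes were 3.02% and 2.4%. None passed after adjustment, and the median log2 fold change of the 27 was 0.04. Igf2os had 3 to 24 counts per sample, and its levels ran from -1.101 to 0.63 log2 CPM in the 6 controls and from 0.22 to 1.22 in the other group. The lower gene was Peg12, a retrogene of the Snrpn domain, with a difference of -0.52 (SE 0.20, limma unadjusted p = 0.0169) on 21 to 52 counts, and of -0.40 (limma unadjusted p = 0.118) with the Malat1 covariate. Its levels were 1.83 to 2.19 log2 CPM in controls and 1.04 to 1.89 in MSUS mice, all 7 of them under the mean of the controls. Next came Rasgrf1 (0.54, unadjusted p = 0.0677), Osbpl5 (0.24, unadjusted p = 0.0775) and Gnas (-0.09, unadjusted p = 0.0794), by the same limma test. The most abundant gene of the list was Gatm, an enzyme of creatine synthesis, with 485 CPM per kilobase. Igf2r, the receptor that clears IGF2, was at 7.65 ± 0.09 log2 CPM in control and 7.69 ± 0.21 in MSUS samples, while Airn, the antisense RNA that silences its paternal allele, had 0, 0, 1, 2, 4 and 5 counts in the 6 control samples and 3, 6, 6, 6, 7, 8 and 9 in the 7 MSUS samples. Airn did not pass the filter, and in the fit without it the difference was 2.10 (limma unadjusted p = 0.000852, adjusted p = 0.929).

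Of 24 genes linked to imprints or to DNA methylation, 21 were tested, with mean levels from 1.17 log2 CPM for Zfp57 to 7.58 for Arid4a. Those not tested were Dnmt3l, Dppa3 and Nlrp5, which are known from germ cells and the oocyte. Trim28, the corepressor that zinc finger proteins bring to imprinted regions, was at 7.24 ± 0.06 log2 CPM in control and 7.18 ± 0.14 in MSUS samples, and the maintenance methyltransferase Dnmt1 at 4.98 ± 0.16 and 5.08 ± 0.12. Zfp57, the factor that binds the hexamer, was low at 1.09 ± 0.37 and 1.24 ± 0.57. Zfp445, the other zinc finger protein known to protect imprints, was at 6.01 ± 0.17 and 6.35 ± 0.28, and per kilobase it stood above Zfp57 with 12.04 against 0.846 CPM. Zfp445 was the single gene of the 21 with an unadjusted p under 0.05, against 5.42% of all genes. Levels ran from 5.83 to 6.30 in controls (median 5.98), while MSUS samples lay between 5.94 and 6.67 (median 6.37). The difference was 0.34 (SE 0.11, limma unadjusted p = 0.00746, adjusted p = 0.878), with 6 of the 7 MSUS mice exceeding the mean of the controls and the groups overlapping. With the level of Malat1 as a covariate it was 0.07 (limma unadjusted p = 0.431). The list's median log2 fold change was 0.09, with 16 of 21 genes above 0, beside -0.0018 and 7141 of 14421 over all genes, and the list was chosen with earlier results of these data known. The next smallest p-values belonged to Uhrf1 (-0.36, unadjusted p = 0.0684), Arid4a (0.14, unadjusted p = 0.0884), Zfp42 (-0.41, unadjusted p = 0.100) and Ehmt2 (0.11, unadjusted p = 0.106), by the same limma test, and Ctcf differed by 0.00.

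**Figure D5:**
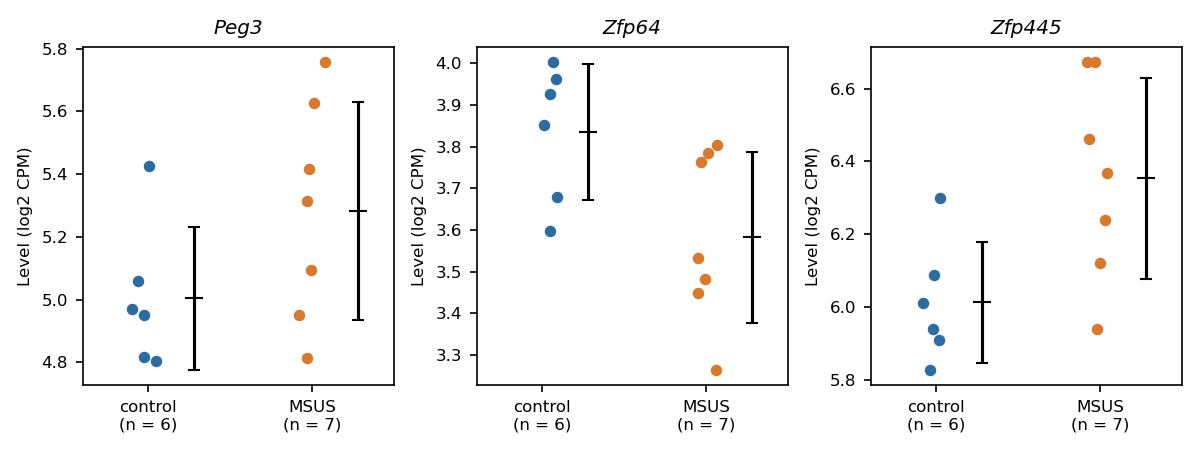
Level in log2 CPM of Peg3, Zfp64 and Zfp445 in each control (n = 6) and MSUS (n = 7) sample, with the group mean and SD at the right of the points; each panel has its own axis, which does not start at 0. MSUS samples reach 5.76 for Peg3 and 6.67 for Zfp445 and go down to 3.27 for Zfp64, and the groups overlap in all 3 panels.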

How the data were processed

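RNA-seq libraries of sorted Sertoli cells from 6 control and 7 MSUS males were made from total RNA with a strand-marking kit and 12 PCR cycles and read as single ends of 100 bases. Per the methods of the study and the submitters' processing notes, the authors trimmed reads with Trim Galore (version 0.6.5) and estimated transcript abundance with Salmon (version 1.1.0) on GENCODE transcripts. The deposited table holds estimated counts per gene, not normalized, and these were rounded to whole numbers. The strand setting of the counting is not given in the sources used here. Features with no gene name (27170 of 54281, 20.66% to 26.71% of the counts of a library) entered neither the library sizes nor the tests.

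Genes were filtered with filterByExpr of edgeR (4.0.16), normalized by TMM and tested with limma voom (3.58.1) in R 4.3.3, TMM and voom being the methods the study names. The filter, a design with group as the only term and Benjamini-Hochberg adjustment over the 14421 genes tested were chosen here. The level of a gene is its log2 CPM (prior count 2). CPM per kilobase used the longest transcript of a gene in GENCODE vM21, on the same GRCm38 assembly as the vM23 release of the study's index but 2 releases earlier. Rows named as members were matched by exact name. The 50 members and both other gene lists were chosen with earlier results of these data known. Statistics were given for the 10 members with the highest CPM per kilobase, for members with an unadjusted p under 0.05 and for the 5 smallest p-values in each direction, and levels for members with at least 3 log2 CPM. Alternatives were edgeR, DESeq2 (1.42.0), sample quality weights, 3 other normalizations, 2 other filters, nameless features kept, a covariate of Malat1 or elongated spermatid level, and each library left out. No pair of libraries agreed within sampling noise. The steps were tested on simulated data. The totals limit genes of a few counts most, and intervals cover the spread between mice.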

Additional observations from a re-analysis of the deposited data

Results flagged for a closer look

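In 8 of 86 groups of values (43 members with at least 13 counts in all, in control or MSUS samples), 1 sample stood apart from the rest of its group by Dixon's criterion, which chance alone meets in about 1 in 20 groups.

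Peg10 was high in control 10, at 9.42 log2 CPM against 9.07 to 9.19 in the other controls, and in MSUS 26, at 9.66 against 9.04 to 9.31 in the other MSUS samples. Sgce, which is divergent from Peg10, was low in control 10, at 3.42 against 3.66 to 3.73. Mkrn3 was low in MSUS 26, at 2.75 against 3.196 to 3.533.

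The other 4 rest on few counts. Dlk1 stood at 1.28 log2 CPM in MSUS 1 (26 counts) against -2.53 to -1.17. The Leydig markers of that sample summed to 65.0 CPM, above the median of 51.1 and within the range of 31.9 to 85.8 over all samples. They summed to 66.1 CPM in control 22 (13 Dlk1 counts) and to 85.8 in MSUS 6 (0 Dlk1 counts). A relation of Dlk1 to the Leydig markers was not tested. Magel2 stood at 0.115 in control 14 (9 counts), Kcnq1 at -0.675 in MSUS 13 (5 counts) and Airn at -1.21 in MSUS 1 (3 counts, against -0.489 to -0.105 in the other MSUS samples).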

How the results depend on the processing

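The count of members with an adjusted p under 0.05 was 0 under every alternative run. The count with an unadjusted p under 0.05, with the share of all genes in the same fit, was 0 in the fit reported (5.42%), 1 with edgeR (Peg3, 5.5%), 3 with DESeq2 (Peg3, Mkrn3 and Mcts2, 5.79%) and 3 with sample quality weights (Mest, Mkrn3 and Mcts2, 7.25%). It was 1, Zfp64 each time, with library size alone (5.51%), upper-quartile scaling (5.71%) and nameless features kept (5.55%), 1 with the elongated spermatid level as a covariate (Peg3, 8.13%), 0 with Malat1 as a covariate (2.74%) and 2 without the filter (4.99%). The 2 were Zfp64 and Airn, the latter with 2.10, limma unadjusted p = 0.000852 and adjusted p = 0.929. Leaving out 1 library at a time gave 0 to 4, the 4 being Mest (-0.41), Mkrn3 (0.36), Mcts2 (0.42) and Zfp64 (-0.28) without MSUS 26, where the share of all genes was 5.02%. The cause of these changes was not tested.

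How many of all genes changed sign with Malat1 as a covariate was not counted. Among the named members the estimates changed sign for Peg10 (-0.0439), Ppp1r9a (-0.0569), Ube3a (-0.0376), H13 (0.00313), Zrsr1 (-0.0689), Trappc9 (-0.0846), Blcap (-0.0347) and Plagl1 (-0.0351). In that limma fit Zfp445 (0.07, unadjusted p = 0.431) and Peg12 (-0.40, unadjusted p = 0.118) no longer had a p under 0.05. The difference of Igf2os, whose p-value is not counted here, went from 1.097 to 0.3682 with the same covariate. Library size alone turned Zrsr1 (-0.00036) and Trappc9 (-0.0046), sample quality weights turned Trappc9 (-0.0061), and upper-quartile scaling turned Trappc9 (-0.00013). Leave-one-out estimates ran from -0.0201 to 0.0427 for Trappc9, -0.0188 to 0.0540 for Zrsr1 and -0.0115 to 0.0752 for Blcap. The r of Peg10 with Ppp1r9a was -0.391 without the 2 farthest samples.

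No paired analysis was possible because the groups share no replicate number, and litter and cage were not used here. Depth limits most the members with few counts.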
